A study of Rattus norvegicus with 15 samples.

Results

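The MHC class II presentation genes were described in the small intestine of Wistar rats, of diabetic GK rats and of GK rats after gastric bypass. They are 8 genes, RT1-Ba, RT1-Bb, RT1-Da, RT1-Db1, RT1-DMa, RT1-DMb, Cd74 and Ciita, and their members were all probes outside the array's controls whose gene name in the array files is one of these. The rule found 12 probes for 7 of the 8 genes, among 41012 probes in all, of which 22503 carry a gene name and represent 17347 genes. No probe with the name RT1-DMb was found, so this gene is not analysed here. Every probe was kept apart, because the class II genes are among the most variable genes between rat strains and a probe made for one allele may bind another less well.

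The Goto-Kakizaki (GK) rat is a nonobese strain that develops type 2 diabetes spontaneously, and it was bred from Wistar rats. All animals were male, and total RNA of 1 intestinal segment at a time, extracted individually, was hybridised to a one-color Agilent whole rat genome array, with 5 arrays in each of 3 groups. The GK-S-30 rats had Roux-en-Y gastric bypass (RYGB) with a 30-cm Roux limb (RL), the gut segment that carries food from the stomach pouch past the bile and pancreatic juice, and the segment taken was the RL. GK-Sham-PF rats were pair-fed and had a sham operation, in which the gut was opened 16 cm from the ligament of Treitz and rejoined. Both GK groups were operated on at 16 wk of age and sampled 14 wk later, and the Wistar rats were the normal controls. Wistar and GK therefore differ in strain, in disease and in having been operated on, and GK-Sham-PF also in pair-feeding. These cannot be told apart. Both GK groups share the strain and differ in the operation and in pair-feeding. In the following the sham group is GK-Sham-PF and RYGB stands for GK-S-30.

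MHC class II molecules are pairs of an alpha and a beta chain that carry peptides from endosomes to the surface of antigen-presenting cells, where CD4 T cells read them. RT1-Ba and RT1-Bb encode the chains of RT1.B, the rat counterpart of human HLA-DQ, and RT1-Da and RT1-Db1 those of RT1.D, the counterpart of HLA-DR. Cd74, the invariant chain, fills the groove of new class II molecules and guides them to endosomes, RT1-DM exchanges its last fragment for peptides, and Ciita is the coactivator that turns the whole set on. Dendritic cells, macrophages and B cells make class II constantly, and the enterocytes of the small intestine also make it, more so under interferon-gamma.

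The segment carried the markers of its tissue. Epithelial markers were bright in every group, with means between 13.8 and 14.0 for Vil1, a brush border protein, and between 13.4 and 13.5 for Cdx2, an intestinal transcription factor. All levels are log2 signals after quantile normalization. The smooth muscle marker Des was at 12.9 in the sham group and 14.9 after RYGB, and the leukocyte marker Ptprc at 8.78 and 8.31. The RNA came from the whole wall with its cell types mixed, so fewer class II-bearing cells and less class II RNA per cell cannot be told apart. The share of probes well above background ran from 66.7% to 74.8% over the arrays, and the 75th percentile of the signal lay between 207 and 357, lowest on Wistar replicate 3 and GK-Sham-PF replicate 5. Arrays were hybridised on 4 slides. One slide held 4 Wistar arrays, a slide called B here held 1 Wistar and 3 GK-Sham-PF arrays, a slide called C held 2 arrays of each GK group, and the last held 3 GK-S-30 arrays. No slide held both Wistar and GK-S-30 arrays, so that comparison has no direct basis within a slide.

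**Figure D1:**
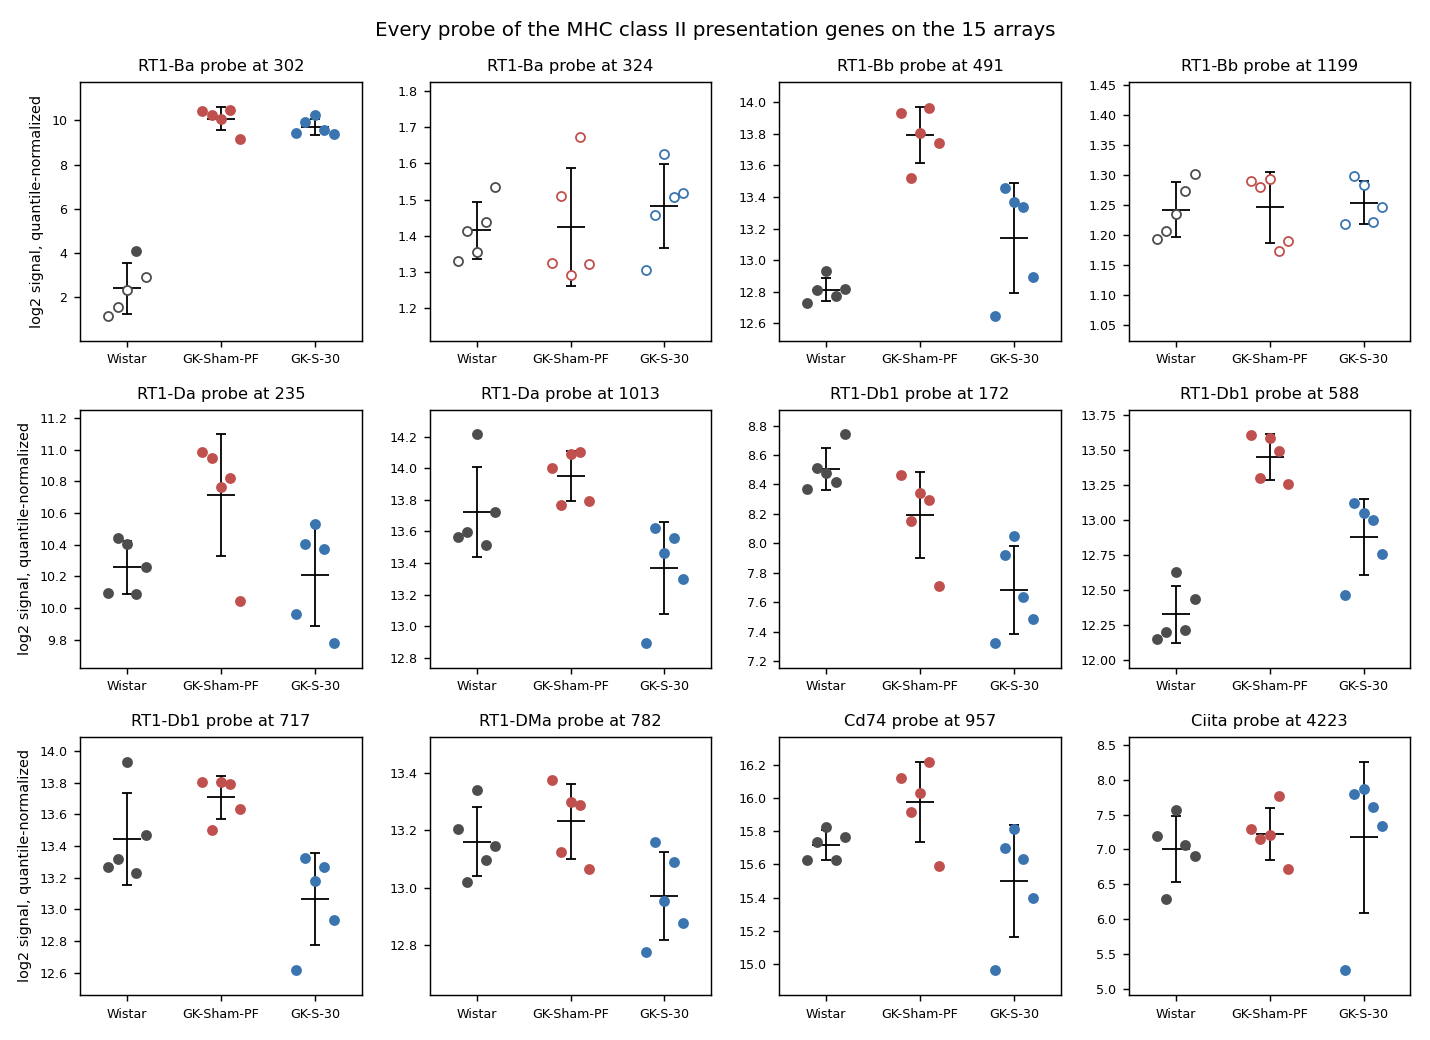
Log2 signal after quantile normalization (y axis, own scale in each panel) of all 12 probes on the 15 arrays, by group; filled points are well above background, open points are not, and bars are the mean and SD of 5 arrays. RT1-Ba at 302 is near background on the Wistar arrays and above 9 on all 10 GK arrays, RT1-Ba at 324 and RT1-Bb at 1199 are open everywhere, and the Ciita point of GK-S-30 replicate 1 lies at 5.27.

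A probe is named here by its gene and by the base of the listed transcript at which it starts, as the array files give it. Probes at 324 of RT1-Ba and at 1199 of RT1-Bb were not well above background on any of the 15 arrays. The other 10 probes entered the tests and were well above background on all 5 arrays of each group, apart from RT1-Ba at 302 in Wistar. Each test was limma on the 17029 named probes that all 5 arrays of some group detected well above background, with Benjamini-Hochberg adjusted p-values over all of them. The standard errors below are those of the same fits.

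The widest difference of the set was in RT1-Ba, the RT1.B alpha chain, and it depended on which probe was read. The array carries 2 probes for it that overlap in sequence. One, at 324, is placed by the files on the rn4 genome (chr20:4700973-4701032), and the other, at 302, was made from a separate RT1.B alpha chain sequence to which the files give no position. Both are shown because they are the same stretch in 2 versions. Capitals mark the bases that differ or have no partner where the probes overlap.
RT1-Ba at 302: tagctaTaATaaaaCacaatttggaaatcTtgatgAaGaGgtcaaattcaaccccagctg
RT1-Ba at 324: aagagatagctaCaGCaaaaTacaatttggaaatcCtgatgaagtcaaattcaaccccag
The overlap is 57 aligned columns long, with 49 matches, 5 mismatches and 3 bases without a partner, and its longest shared run is 17 bases. The 3 bases without a partner can also be placed side by side with the same number of matches, so their marked positions are not unique.

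RT1-Ba at 302 read 1.16, 1.53, 2.33, 4.07 and 2.90 on Wistar replicates 1 to 5. On the GK-Sham-PF arrays it read 10.41, 10.23, 10.06, 10.46 and 9.17, and on the GK-S-30 arrays 9.44, 9.93, 10.23, 9.58 and 9.39. Every GK array was above every Wistar array, and in Wistar only replicate 4 was well above background. Against the detection limit of the Wistar arrays, taken on each array as the higher of its own reading and the lowest signal of any named probe well above background, GK-Sham-PF was at least 100.5-fold higher and GK-S-30 at least 78.7-fold higher. The probe entered the tests only through the GK arrays, so a difference from Wistar was built into its selection, and its adjusted p-values from limma, 7.98e-09 and 1.2e-08, are given as a description. The measured difference is no size of the change, since it depends on how dim signal was handled, and for GK-Sham-PF against Wistar it was 7.67 on the log2 scale as processed and 3.80 after normexp background correction with an offset of 50. The probe at 324 stayed between 1.29 and 1.67 over all 15 arrays, so neither strain had a reading on it. Whether Wistar carries an allele that neither probe binds was not tested.

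RT1-Bb, the RT1.B beta chain, was read by its probe at 491 (rn4 chr20:4732962-4733021).
RT1-Bb at 491: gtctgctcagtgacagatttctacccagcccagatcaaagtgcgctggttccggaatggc
On Wistar replicates 1 to 5 this probe read 12.73, 12.81, 12.93, 12.78 and 12.82. On GK-Sham-PF it read 13.93, 13.52, 13.81, 13.96 and 13.74, and on GK-S-30 12.65, 13.46, 13.37, 13.33 and 12.89. All 5 GK-Sham-PF arrays lay above all Wistar and all GK-S-30 arrays. GK-Sham-PF was 1.97-fold higher than Wistar, 0.98 ± 0.14 on the log2 scale (limma adjusted p = 0.000336), and GK-S-30 was lower than GK-Sham-PF by 1.57-fold, with a log2 difference of -0.65 ± 0.14 (adjusted p = 0.0118). GK-S-30 and Wistar differed by 0.33 ± 0.14 and overlapped (adjusted p = 0.112). With slide as a fixed block, only slides B and C inform these 2 differences. The values were then 1.02 (limma adjusted p = 0.146) and -0.80 (adjusted p = 0.122), as large as before and no longer past the threshold. Slide C holds GK-S-30 replicates 1 and 2, and replicate 1 was the lowest array of all on this probe.

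RT1-Db1, the RT1.D beta chain, had probes that disagreed. Its 3 probes lie at 172 (rn4 chr20:4677050-4677109), 588 (chr20:4673410-4673469) and 717 (chr20:4672677-4672736). They are printed because the comparison of GK with Wistar differs between them.
RT1-Db1 at 172: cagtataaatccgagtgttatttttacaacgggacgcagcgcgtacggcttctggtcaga
RT1-Db1 at 588: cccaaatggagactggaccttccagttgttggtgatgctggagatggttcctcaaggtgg
RT1-Db1 at 717: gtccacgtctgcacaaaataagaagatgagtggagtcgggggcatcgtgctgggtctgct

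The probe at 588 read 12.15, 12.20, 12.63, 12.21 and 12.43 in Wistar, 13.61, 13.30, 13.59, 13.50 and 13.26 in GK-Sham-PF, and after RYGB 12.46, 13.12, 13.05, 13.00 and 12.76. All GK-Sham-PF arrays were above all arrays of the other groups, and GK-S-30 lay between with 1 array inside the Wistar range. It was 2.18-fold higher in GK-Sham-PF than in Wistar (1.13 ± 0.14 on the log2 scale, limma adjusted p = 5.09e-05) and 1.47-fold higher in GK-S-30 than in Wistar (0.55 ± 0.14, adjusted p = 0.00807). The probe at 717 read 13.27, 13.32, 13.93, 13.23 and 13.47 in Wistar, 13.80, 13.50, 13.81, 13.79 and 13.63 in the sham group, and after RYGB 12.62, 13.32, 13.18, 13.27 and 12.93. Here the Wistar arrays overlapped both GK groups, and GK-Sham-PF differed from Wistar by 0.26 ± 0.15 (adjusted p = 0.379). The probe at 172 ran from 8.37 to 8.74 in Wistar, from 7.71 to 8.46 in GK-Sham-PF and from 7.32 to 8.05 in GK-S-30. On this probe the GK groups were the lower ones, by -0.31 ± 0.16 in the sham group (adjusted p = 0.293) and by -0.82 ± 0.16 after RYGB (adjusted p = 0.00145), and no GK-S-30 array reached the Wistar range.

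For 2 of the 3 pairs of RT1-Db1 probes the disagreement against Wistar was itself larger than the spread between arrays. On each array the log2 ratio of one probe to another was taken, and its group means were compared with an exact two-sided permutation test. These ratios were chosen after the values were seen, 12 tests were run over RT1-Db1 and RT1-Da, and 0.00794 is the smallest p that 5 against 5 arrays can give. The change from Wistar to GK-Sham-PF at 172 was -1.44 below that at 588 on the log2 scale, and the change at 588 was 0.86 above that at 717 (exact p = 0.00794 and adjusted p = 0.0238 for both). In the comparison of GK-S-30 with Wistar the same differences were -1.38 and 0.93 (exact p = 0.00794, adjusted p = 0.0238). The third pair, 172 against 717, differed by -0.58 and -0.44 in the 2 comparisons, with overlapping arrays (exact p = 0.0238 and 0.0397, adjusted p = 0.0571 and 0.0794). From the sham group to GK-S-30, which share the strain, the changes of the probes differed from each other by 0.06 to 0.13 (exact p between 0.135 and 0.556). After RYGB 2 of the 3 probes fell, with log2 differences of -0.57 ± 0.14 at 588 and -0.64 ± 0.15 at 717 (limma adjusted p = 0.0179 for both), and the difference at 172 was -0.51 ± 0.16 with overlapping arrays (adjusted p = 0.0581). Sequence differences between the strains under these probes were not tested.

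**Figure D2:**
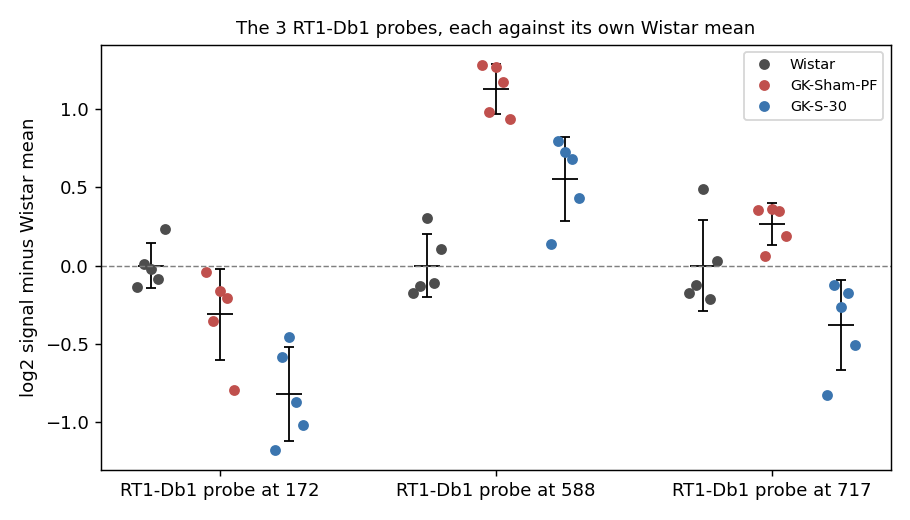
Log2 signal of the 3 RT1-Db1 probes minus the Wistar mean of the same probe (y axis), for the 5 arrays of each group; bars are mean and SD. The mean difference of GK-Sham-PF from Wistar is -0.31 at 172, 1.13 at 588 and 0.26 at 717, with the arrays apart only at 588, and the mean of GK-S-30 is below that of GK-Sham-PF at each of the probes.

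RT1-Da, the RT1.D alpha chain, showed less disagreement. Its probe at 1013 (rn4 chr20:4641104-4641163) ranged from 13.51 to 14.21 in Wistar, from 13.77 to 14.10 in GK-Sham-PF and from 12.89 to 13.62 in GK-S-30. All GK-S-30 arrays were below all GK-Sham-PF arrays, a log2 difference of -0.58 ± 0.16 (limma adjusted p = 0.0302). Leaving out GK-Sham-PF replicate 1, 3 or 4 or GK-S-30 replicate 1 or 5 moved its adjusted p to between 0.0661 and 0.0695. The probe at 235 (rn4 chr20:4638704-4638763) ran from 10.09 to 10.44 in Wistar, from 10.05 to 10.99 in GK-Sham-PF and from 9.78 to 10.53 in GK-S-30. GK-Sham-PF replicate 5 was the low value of its group, while the other 4 arrays lay above all Wistar arrays. Its differences were 0.45 ± 0.18 for GK-Sham-PF against Wistar (adjusted p = 0.166) and -0.50 ± 0.18 after RYGB (adjusted p = 0.108). Without GK-Sham-PF replicate 5 they were 0.62 (adjusted p = 0.0164) and -0.67 (adjusted p = 0.0144).

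RT1-DMa, the alpha chain of the peptide exchanger RT1-DM, had 1 probe, at 782, and its levels were the closest together. It ran from 13.02 to 13.34 in Wistar, from 13.07 to 13.38 in GK-Sham-PF and from 12.78 to 13.16 in GK-S-30, and all 3 groups overlapped. The difference of GK-Sham-PF from Wistar was 0.07 ± 0.10 on the log2 scale, with a 95% interval of -0.14 to 0.28, and that of GK-S-30 from GK-Sham-PF -0.26 ± 0.10, with an interval of -0.47 to -0.05 (limma adjusted p = 0.773 and 0.123).

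Cd74 was read by a probe at 957 (rn4 chr18:56765468-56765527). Its levels were 15.63, 15.74, 15.83, 15.63 and 15.77 in Wistar, 16.12, 15.92, 16.03, 16.22 and 15.59 in GK-Sham-PF, and after RYGB 14.96, 15.70, 15.81, 15.63 and 15.40. The Wistar arrays were close together, GK-Sham-PF lay above them apart from replicate 5, and GK-S-30 overlapped both groups with replicate 1 as the lowest array of all. No difference passed the threshold, with 0.26 ± 0.15 for GK-Sham-PF against Wistar (limma adjusted p = 0.378), -0.48 ± 0.15 after RYGB (adjusted p = 0.0652) and -0.22 ± 0.15 for GK-S-30 against Wistar (adjusted p = 0.326). Without GK-Sham-PF replicate 5 the fall after RYGB was -0.57 (adjusted p = 0.0279), and over all the settings tried its adjusted p ran from 0.0239 to 0.267. No spot used on these arrays was saturated.

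Ciita, the switch of the set, passed in no comparison. The probe at 4223 (rn4 chr10:5087172-5087231) read 7.19, 6.29, 7.56, 7.07 and 6.90 in Wistar, 7.29, 7.14, 7.21, 7.77 and 6.71 in GK-Sham-PF, and after RYGB 5.27, 7.79, 7.86, 7.61 and 7.34. GK-S-30 replicate 1 was far below the rest, and the other 4 GK-S-30 arrays lay in the upper part of the range of the 15. The difference of GK-S-30 from GK-Sham-PF was -0.05 ± 0.41, with a 95% interval of -0.92 to 0.82 (limma adjusted p = 0.962), and 0.43 without that array (adjusted p = 0.334). This interval holds the size of the changes of the class II chains in both directions, so a change of their size was not detectable for Ciita.

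GK-S-30 replicate 1 stood apart beyond Ciita. It was the lowest of the 5 GK-S-30 arrays on 8 of the 10 tested probes and the lowest of all 15 arrays on 7 of them. Its T cell markers had a mean level of 6.74, inside the range of 6.70 to 7.15 of its group, and its plasma cell markers were the highest of the 15 arrays at 11.73. Leaving it out left 3 of the 4 probes that fell after RYGB past the threshold.

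Read over the 10 tested probes, 3 were higher and 0 lower in GK-Sham-PF than in Wistar at a limma adjusted p under 0.05. Of all named probes tested, 3.74% were higher and 4.14% lower in that comparison. The 3 were RT1-Ba at 302, RT1-Bb at 491 and RT1-Db1 at 588. They were also the 3 whose arrays did not overlap between the groups, against 9.04% of all probes. RT1-Ba at 302 is counted among them although it was tested only because of the GK arrays. The median difference was 0.26 over the 10 probes, with RT1-Ba at its reading or at its bound, and 0.01 over all probes. No probe of Cd74, RT1-DMa, RT1-Da or Ciita passed, and 2 of the 3 kept their call when slide was a fixed block.

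After RYGB some probes of the class II chains were lower. Of the 10 tested probes, 4 were lower and 0 higher after RYGB than in the sham group, against 3.58% lower and 4.77% higher among all probes tested. They were RT1-Bb at 491, RT1-Da at 1013 and RT1-Db1 at 588 and 717, and the same 4 had groups that did not overlap, against 8.39% of all probes. All 10 probes had a lower mean in GK-S-30, with a median difference of -0.51 against -0.02 over all probes, though probes of 1 gene and of genes in 1 region are not independent. Differences within slide C, from 2 arrays of each group, were -0.80 for RT1-Bb at 491, -0.69 for RT1-Da at 1013, -0.59 and -0.74 for RT1-Db1 at 588 and 717 and -0.57 for Cd74. The GK-S-30 arrays of slide C were replicates 1 and 2, and replicate 1 was the lowest of its group on each of these probes. RT1-Bb at 491 read 12.65 and 13.46 on them, against 13.96 and 13.74 on GK-Sham-PF replicates 4 and 5. Cd74 read 14.96 and 15.70, against 16.22 and 15.59. These differences therefore rest in large part on replicate 1. With slide as a fixed block none of the 10 passed the threshold, and without GK-Sham-PF replicate 5, the array of low signal, 7 did.

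GK-S-30 against Wistar gave 2 probes higher, RT1-Ba at 302 and RT1-Db1 at 588, and 1 lower, RT1-Db1 at 172. Among all probes tested 11.9% were higher and 12.2% lower, and the arrays of the 2 groups did not overlap for 2 of the 10 members and for 18.2% of all probes. These 2 were RT1-Ba at 302 and RT1-Db1 at 172. RT1-Ba at 302 is in both counts although it was tested only because of the GK arrays, so its difference from Wistar was built into its selection. The median difference of the members was -0.12, against -0.01 over all probes. The 3 comparisons share arrays with each other, so their values stand side by side and are not separate lines of evidence.

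**Figure D3:**
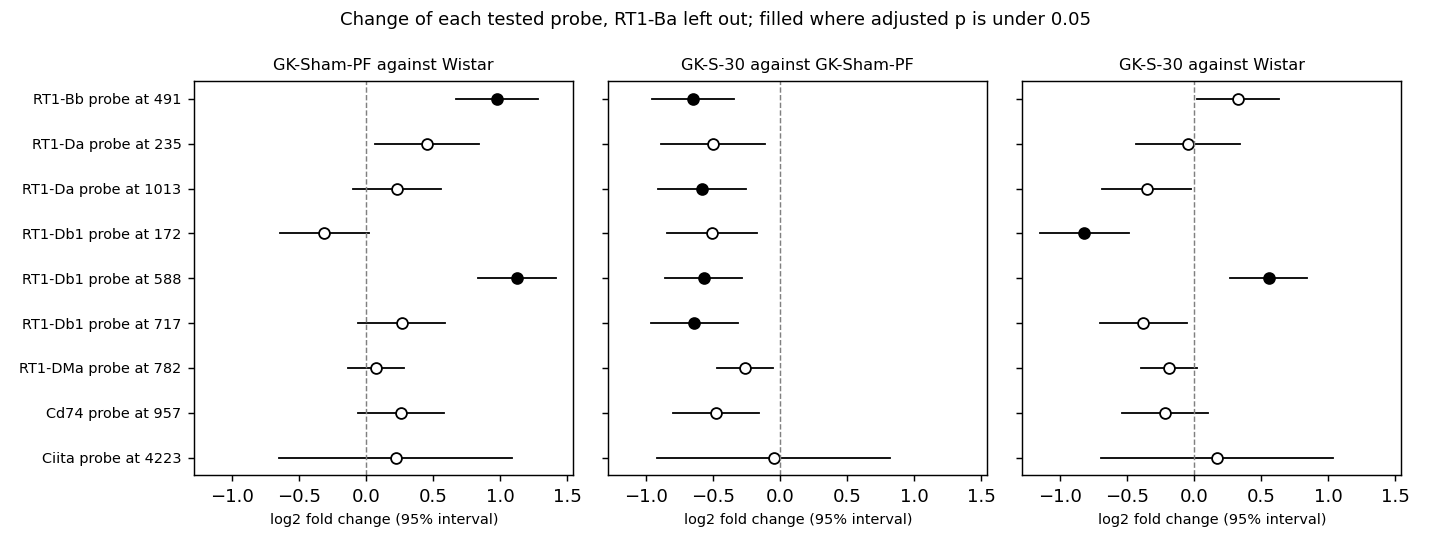
Log2 fold change (x axis) with its 95% interval for the tested probes in the 3 comparisons, from limma on all 15 arrays; filled points have an adjusted p under 0.05, and RT1-Ba at 302 is left out because its measured difference of 7.67 is off the scale. In the middle panel every point is left of 0, and in the left panel the RT1-Db1 probes fall on both sides of it.

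Whether the chains changed more than Cd74 was asked within arrays, as the log2 ratio of each probe to the Cd74 probe, with exact two-sided permutation tests and adjustment over all 27 ratios and comparisons. From Wistar to GK-Sham-PF the change exceeded that of Cd74 by 0.72 for RT1-Bb at 491 and 0.87 for RT1-Db1 at 588, and RT1-Db1 at 172 fell behind it by -0.57 (exact p = 0.00794, the smallest possible, and adjusted p = 0.0268 for each). The differences for RT1-Db1 at 717 and RT1-Da at 1013 were 0.00 and -0.03 (exact p = 0.96 and 0.77). After RYGB 0 of the 9 ratios passed the threshold and 0 had an unadjusted exact p under 0.05, the differences running from -0.17 for RT1-Bb at 491 to 0.43 for Ciita. In the comparison of GK-S-30 with Wistar the differences were 0.54 for RT1-Bb at 491, 0.77 for RT1-Db1 at 588 and -0.60 for RT1-Db1 at 172 (exact p = 0.00794, adjusted p = 0.0268). RT1-Ba at 302 is left out of these sizes, since its Wistar readings were mostly not above background.

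Deviations of single arrays from their group were compared with those of Cd74. With group means removed, the Pearson correlation with the Cd74 probe over the 15 arrays was 0.88 for RT1-Db1 at 172, 0.85 at 588 and 0.73 at 717, 0.84 for RT1-Bb at 491 and for Ciita, 0.78 and 0.77 for the RT1-Da probes, 0.72 for RT1-DMa and 0.36 for RT1-Ba at 302. The value of RT1-Ba at 302 is limited by its Wistar readings, of which only 1 was well above background and whose SD was 1.16. In GK-Sham-PF and GK-S-30 its SD was 0.52 and 0.36. Whether it follows Cd74 where it was detected was not tested. The arrays share slides, hybridisation and the cell makeup of the segment, and the median of the same measure over 12998 named genes was -0.01. Leaving out GK-S-30 replicate 1, the values ran from 0.56 for RT1-Db1 at 717, 0.62 for RT1-Da at 1013, 0.63 for RT1-DMa and 0.64 for Ciita to 0.89 for RT1-Db1 at 172, with RT1-Ba at 0.40. Among the 10 genes outside the set that were most like Cd74 by this measure were RT1-Db2, a second D beta locus, at 0.93, Gimap5, a GTPase of lymphocytes, at 0.92, Runx3, a transcription factor of T cells and intraepithelial lymphocytes, at 0.90, LOC689809, Pan3, Csk, Cnppd1, Klrb1c, a natural killer cell receptor, and Parp14 at 0.84.

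The promoters of the class II genes are known for a shared module, in which an X box bound by RFX and a Y box bound by NF-Y lie at a fixed distance and together recruit Ciita. RefSeq promoter windows of the GRCr8 build, 250 bases before to 50 after the start of the gene, were at hand for 6 of the 8 members. They are shown because probes of RT1-Bb, RT1-Da and RT1-Db1 fell past the threshold after RYGB. Those of RT1-Ba, RT1-DMa and Cd74 did not pass, but were also lower, by -0.35, -0.26 and -0.48. RT1-Da at 235 and RT1-Db1 at 172 did not pass either, at -0.50 and -0.51. No ratio to Cd74 passed the threshold after RYGB, so the genes are not split into those that fell and those that did not. Whether the motifs go with the size of the fall was not tested. The letters searched on both strands were ACNGATG for the X box and CCAAT, or ATTGG on the other strand, for the Y box. The stretch that holds them is printed on the strand of the gene with the motifs in capitals.
RT1-Bb: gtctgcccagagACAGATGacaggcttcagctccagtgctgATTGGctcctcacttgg
RT1-Da: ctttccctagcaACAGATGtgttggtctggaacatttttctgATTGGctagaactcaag
RT1-Db1: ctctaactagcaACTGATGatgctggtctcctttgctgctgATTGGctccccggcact
RT1-DMa: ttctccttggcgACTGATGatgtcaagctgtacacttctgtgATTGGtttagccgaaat
RT1-Ba: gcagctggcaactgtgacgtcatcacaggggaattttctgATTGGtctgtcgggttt
These lie at chr20:4604163-4604220 (minus strand) for RT1-Bb, chr20:4515324-4515382 (plus) for RT1-Da, chr20:4560226-4560283 (minus) for RT1-Db1, chr20:4712383-4712441 (minus) for RT1-DMa and chr20:4576974-4577030 (plus) for RT1-Ba. ACNGATG followed by ATTGG on the same strand, with 15 to 30 bases between, was found in 4 of the 6 windows, always 22 or 23 bases apart, and in 0.126% of all 33469 promoters. The Y box letters alone were in all 6 windows, Cd74 included, and in 37.5% of all promoters, and ACNGATG alone in 4 of 6 and in 10.2%. RT1-Ba and Cd74 held no ACNGATG in these windows. Other forms of the X box were not searched, so this does not show that an X box is absent.

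Other class II chains gave a similar picture in the 1 probe that was bright. RT1-Db2 was at 11.14 ± 0.12 (SD, n = 5) in Wistar, 12.02 ± 0.18 in the sham group and 11.48 ± 0.29 after RYGB. It rose by 0.88 from Wistar to GK-Sham-PF (limma adjusted p = 0.00039) and fell by 0.54 after RYGB (adjusted p = 0.0206), and the near-identical D beta genes may share signal on their probes. RT1-DOa and RT1-DOb, the chains of the DM inhibitor RT1-DO, were at 5.87 and 5.42 in GK-Sham-PF and passed in neither of these comparisons, and RT1-DOb was lower in GK-S-30 than in Wistar by -0.56 (adjusted p = 0.0341). RT1-Ha had no tested probe.

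Among 7 factors that act on class II promoters, 6 passed in no comparison. The other was Rfx5, the DNA-binding subunit of the X box factor, at -0.69 in the sham group and -0.90 after RYGB against Wistar (limma adjusted p = 0.0232 and 0.0018). Its change after RYGB was -0.20 (adjusted p = 0.558). Rfx5 was dim, with means of 4.06 in Wistar, 3.37 in the sham group and 3.17 after RYGB. The lowest signal well above background on an array ran from 2.85 to 3.74. One GK-S-30 array read 2.51, so the probe was tested only through another group. Its differences from Wistar are therefore readings near the floor and give no size of a change. The list's median was -0.03 after RYGB, near the -0.02 of all probes.

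Of 12 endosomal proteases and traffic genes, 3 rose and 0 fell after RYGB (4.77% and 3.58% of all probes tested), with a median of 0.01. They were Ctsz by 1.21, the asparaginyl endopeptidase Lgmn, which cuts invariant chain, by 0.88, and Ctse by 0.64 (limma adjusted p = 0.000893, 0.0164 and 0.0471). Ctsz was already higher in GK-Sham-PF than in Wistar by 1.19 (adjusted p = 0.000486), as was Ctsh by 0.64 (adjusted p = 0.0264). Ctss, the cathepsin that makes the last cut of invariant chain in antigen-presenting cells, was lower in GK-S-30 than in Wistar by -0.45 (adjusted p = 0.00762), in a comparison where 3 genes of the list were higher, Ctsz by 2.40, Lgmn by 0.91 and Ctsh by 0.49, and 3 lower (adjusted p = 2.39e-07, 0.00463 and 0.0452 for the higher ones). The ligands of Cd74, Mif and Ddt, and its partner Cd44 passed in no comparison.

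Genes of the interferon-gamma axis, the main inducer of Ciita, changed in small part. Among all probes tested, 3.58% were lower and 4.77% higher after RYGB, and 3.74% were higher in GK-Sham-PF than in Wistar. After RYGB 2 of 16 tested genes fell and 0 rose, with a median of -0.14. Among them, Cxcl10, a chemokine that draws T cells, fell by 2.09 on the log2 scale and its GK-S-30 arrays, from 5.77 to 6.97, lay below all others (limma adjusted p = 0.000225). From Wistar to GK-Sham-PF 2 rose, the immunoproteasome subunits Psmb9 by 0.89 and Psmb8 by 0.57 (adjusted p = 1.81e-05 and 0.0206), both of which lie among the class II genes in the same region of chromosome 20. Ifng itself had no tested probe.

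Some markers of cell types moved beside the fall after RYGB, where 3.58% of all probes tested were lower and 4.77% higher. Of the B cell genes 0 of 6 and of the dendritic cell genes 0 of 3 passed, with medians of -0.09 and -0.26. Of 11 T cell genes 5 fell and 0 rose, with a median of -0.47. They were the T cell receptor subunits Cd3e by 0.76, Cd3d by 0.66 and Cd3g by 0.47, the kinase Zap70 by 0.62, and Lag3, a receptor that binds class II, by 1.02 (limma adjusted p = 0.00982, 0.0157, 0.0378, 0.0254 and 0.00753). Lag3 was dim, with means of 5.36 in the sham group and 4.35 after RYGB. Its lowest GK-S-30 array read 3.49, where the lowest signal well above background on an array ran from 2.85 to 3.74. The size of its fall is therefore uncertain. The mean level of the T cell list ran from 6.85 to 7.66 in GK-Sham-PF and from 6.70 to 7.15 in GK-S-30. The leukocyte gene Laptm5 fell by 0.49 (adjusted p = 0.00792), 1 of 4 in its list, and the complement gene C1qc by 0.54 (adjusted p = 0.0449), 1 of 12 macrophage genes. The median was -0.31 over the macrophage genes and -0.48 over the leukocyte genes. Of 3 plasma cell genes 2 rose, Tnfrsf17 by 0.71 and Mzb1 by 0.60 (adjusted p = 0.022 and 0.0358).

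Smooth muscle genes had the largest median of these lists, 1.14. Of 8 genes, 4 were higher after RYGB than in the sham group, against 4.77% of all probes tested. Actg2 rose by 2.35, Cnn1 by 2.23, Des by 1.99 and Tagln by 1.45 (limma adjusted p = 5.93e-05, 0.000345, 4.98e-05 and 0.000453). The list's mean level was 10.60 to 11.66 in GK-Sham-PF and 12.00 to 12.35 in GK-S-30. Epithelial genes had a median of 0.16, and Krt18 and Krt19 rose by 0.29 and 0.56 (adjusted p = 0.0442 and 0.0343). The part of these shifts in the fall of the class II chains was not tested.

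B cell and dendritic cell markers were also compared between GK-Sham-PF and Wistar. In GK-Sham-PF 3.74% of all probes tested were higher and 4.14% lower. Of 6 tested B cell genes, Cd79a and Cd79b, the signal chains of the B cell receptor, were higher in GK-Sham-PF than in Wistar by 0.82 and 0.98 (limma adjusted p = 0.0246 and 0.0381). The differences of Cd22, Blk and Cxcl13 were -0.75, -0.67 and -0.38, none past the threshold, and the list median was 0.09, while Ms4a1, Pax5, Cr2 and Cxcr5 had no tested probe. The mean level of the list was 6.30 to 6.68 in Wistar and 6.02 to 7.81 in GK-Sham-PF, with the highest value on replicate 1. Of 3 tested dendritic cell genes, Flt3 and Batf3 were lower by -1.02 and -0.52 (adjusted p = 0.00718 and 0.0325) and Ccr7 was at 0.59 (adjusted p = 0.063), and Itgax, Zbtb46, Xcr1 and Clec9a had no tested probe. Macrophage markers differed in both directions, with Adgre1 higher by 0.62 and Mrc1 lower by -0.58 (adjusted p = 0.00466 and 0.0126). The list's range was 10.11 to 10.59 in Wistar and 10.12 to 10.45 in GK-Sham-PF. The part of these markers in the differences of RT1-Bb and RT1-Db1 between GK-Sham-PF and Wistar was not tested. Of the 2 tested costimulatory genes, Cd40 and Cd83, neither passed in any comparison.

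**Figure D4:**
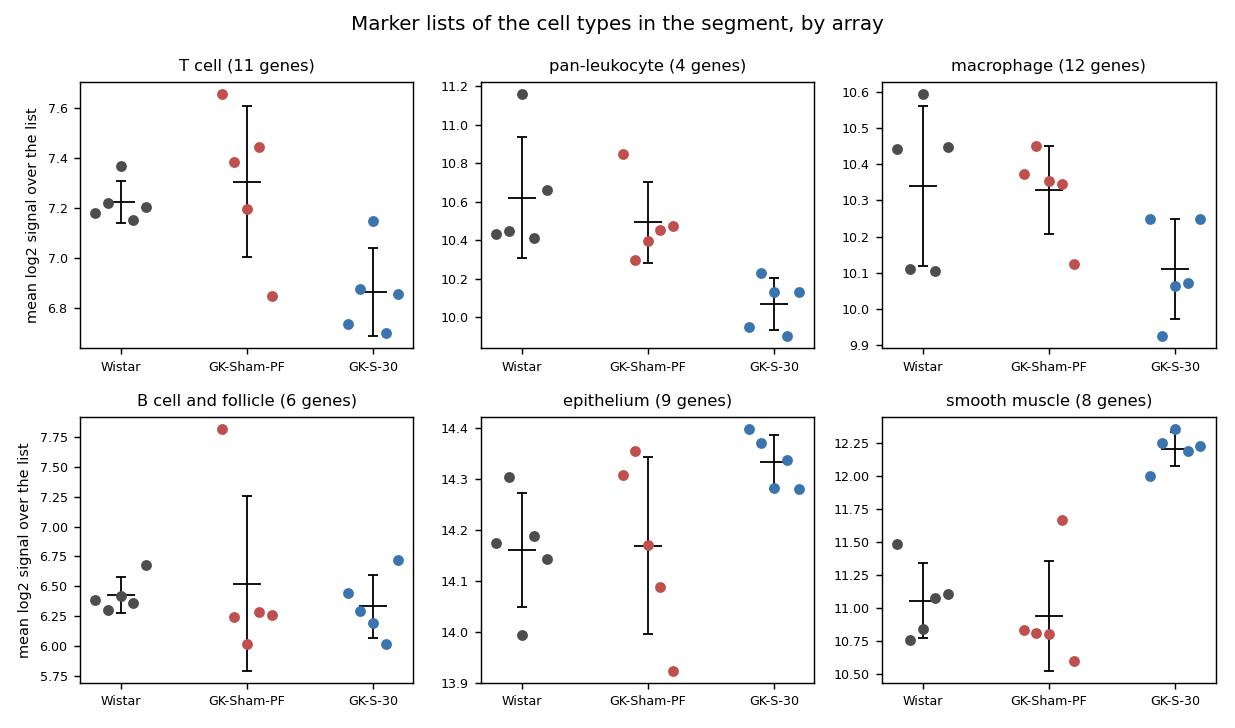
Mean log2 signal over the tested genes of 6 marker lists (y axis, own scale in each panel) for the 15 arrays; bars are mean and SD of 5 arrays. Smooth muscle markers are higher on all GK-S-30 arrays, from 12.00 to 12.35, than on any other array, and leukocyte markers are lower, from 9.90 to 10.23.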

How the data were processed

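RNA of 15 rat intestinal segments (5 Wistar, 5 GK-Sham-PF, 5 GK-S-30; 3 comparisons) was labelled with Cy3 and hybridised to 1 array each. The deposited scanner files give the intensity of each spot from Agilent Feature Extraction 10.7 per the labels, whose processed signal had spatial and multiplicative detrending and no separate background correction, and place probes on rn4 per the file headers. The authors also deposited log2 values, quantile-normalized in GeneSpring, which served as an alternative.

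Control spots and outlier spots were left out, spots of 1 probe were averaged as log2 of the processed signal intensity, and arrays were quantile-normalized (limma 3.58.1, R 4.3.3). Probe names were brought to present symbols through RefSeq tables by accession (17541 probes), symbol (3100) or synonym (548). Another 1314 kept the file's name and 18509 had none. Each probe was tested with limma on all 15 arrays without covariates and adjusted over the 17029 tested probes at 0.05. Lists were read through each gene's brightest tested probe. Fits were tested on simulated data. The number of arrays limits the precision. Replicates are numbered samples of a group per the labels, and RNAs were extracted individually per the methods. Tried alternatives were scaling to the 75th percentile, normexp, the authors' matrix, filters, blocks for slide and replicate, Tukey's comparison and leaving out arrays.

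Named genes were every probe of the members, defining markers, up to 4 genes per list and comparison with the smallest adjusted p past 0.05, and the 10 most like Cd74, of which some genes are not reported here. A 5th T cell gene is named where 5 passed. The members and lists were chosen with earlier results of these data known. The numbers of replicates come from the titles.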

Additional observations from a re-analysis of the deposited data

Results flagged for a closer look

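Groups of 5 arrays were searched for a lowest or highest value whose gap to its neighbour is more than 0.71 of the group's range, and 2 of 30 groups of member values had one, where chance gives about 1.5. Ciita on GK-S-30 replicate 1 read 5.27, with the next array at 7.34 and the highest at 7.86. RT1-Da at 235 on GK-Sham-PF replicate 5 read 10.05, with the next array at 10.77.

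A further 12 probes carry no gene name but lie in the class II region on rn4 chromosome 20 or are described in the files as class II, and 11 of them could be tested in a fit of all 27892 probes above background, named or not. Against Wistar, 4 were higher in GK-Sham-PF and 3 lower, where 7.84% of all probes of that fit were called. Higher were the probe of the Brown Norway MHC assembly that starts at 4751593 on chromosome 20, between the genes named above, at least 8.86-fold higher against the detection limit of the Wistar arrays (measured difference 4.32, limma adjusted p = 9.95e-09), tested only through the GK arrays since 0 of 5 Wistar arrays and 5 of 5 in each GK group were well above background, a second probe of that assembly at 4801160 by 0.55 (adjusted p = 0.0178), a probe of a class II antigen of Rattus rattus by 0.60 (adjusted p = 0.0136), and a probe of the RT1-D beta1 chain of haplotype k by 0.65 (adjusted p = 0.00681). The latter 2 were lower after RYGB than in the sham group, by -0.59 and -0.57 (adjusted p = 0.0198 and 0.0218). Lower in GK-Sham-PF than in Wistar were a probe described as a homolog of mouse class II E beta, by -2.04 (adjusted p = 6.58e-08), and 2 probes of expressed sequence tags next to RT1-Db1, by -1.20 and -0.92 (adjusted p = 0.000225 and 0.0371). What the probes bind in either strain was not tested.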

How the results depend on the processing

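Calls between GK-Sham-PF and Wistar numbered 3 of 10 probes and ranged from 2 to 4 over 28 alternatives. The calls against Wistar in this paragraph include RT1-Ba at 302, which was tested only because of the GK arrays. Calls after RYGB against the sham group numbered 4, all lower, and came to 2 with 75th percentile scaling, 0 with slide as a fixed block, 7 without Wistar replicate 3 and GK-Sham-PF replicate 5 together, 7 by the methods' Tukey comparison unadjusted and 0 with its p adjusted over all probes. Leaving out 1 array at a time gave 3 to 7, the 7 without GK-Sham-PF replicate 5. Calls between GK-S-30 and Wistar numbered 3 and came to 1 with 1 probe per gene and 1 with slide as a fixed block, and to 3 to 4 when 1 array was left out. Ratios to Cd74 past the threshold numbered 4, 0 and 4 in the 3 comparisons, RT1-Ba at 302 included, and 4 to 5, 0 to 1 and 4 to 5 when 1 array was left out, the 1 after RYGB without GK-S-30 replicate 1.

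Differences that were called in no setting changed sign as follows. Ciita after RYGB against the sham group was 0.0037 with normexp, 0.09 without GK-Sham-PF replicate 4 and 0.43 without GK-S-30 replicate 1, with a range of -0.22 to 0.43 when 1 array was left out. Ciita in GK-S-30 against Wistar was -0.70 with slide as a fixed block, -0.0080 without Wistar replicate 2 and -0.0016 without GK-S-30 replicate 3, with a range of -0.0080 to 0.65. RT1-Da at 235 between GK-S-30 and Wistar was 0.0023 with 75th percentile scaling, 0.56 with slide as a fixed block, 0.015 without GK-S-30 replicate 1 and 0.060 without GK-S-30 replicate 5, with a range of -0.13 to 0.060. No called difference changed sign in any setting.

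Over all 17029 probes the calls of the 3 comparisons numbered 1342, 1423 and 4104, and came to 210, 328 and 268 with slide as a fixed block, 2374, 2565 and 4689 by the unadjusted and 826, 562 and 2687 by the adjusted Tukey comparison, to 2187 and 6354 against Wistar with unnamed probes kept (27892 tested), and after RYGB to 937 without GK-Sham-PF replicate 2 and 947 without GK-Sham-PF replicate 1.

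With the replicate block the counts were 3, 4 and 3, and no call changed. Of the 15 pairs of same-numbered arrays 3 had correlated deviations above 0.1 (from -0.29 to 0.20). The labels state no tie between same-numbered samples, and these values cannot exclude one. The cause of the moved counts was not tested, except that the slide block leaves slide C, with 2 arrays of each group, as the only direct source for the comparison after RYGB. Differences smaller than those called here may be missed with 5 arrays a group, and probes near background give no level.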
